A study of Mus musculus with 12 samples.

Results

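In cultured mouse keratinocytes, 3891 of the 19920 m6A peaks listed at day 0 had no day 4 peak at the same place although their gene still carried at least 1 day 4 peak. They lay in 2410 genes. A peak was placed in this set when it shared no base with any day 4 peak on the same strand and when its gene symbol stood at least 1 time in the day 4 list. These peaks are called lost peaks below, a word about the lists and not about a measured loss of methyl groups. The other day 0 peaks were 13987 that shared at least 1 base with a day 4 peak, called retained peaks, and 2042 with no overlap in genes with no day 4 peak. The lost peaks were thus selected on measured values, namely which peaks were called on each day, so their number, score and width are given as a description.

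The cells were primary keratinocytes from the epidermis of newborn mice, grown to passage 3 on 3T3 fibroblast feeders that mitomycin C had stopped from dividing, in low-calcium medium with serum. Day 0 cells were undifferentiated, and day 4 cells were differentiated by a calcium shift. Each day had 3 input libraries of polyadenylated, fragmented RNA and 3 libraries of RNA pulled down with an anti-m6A antibody, 12 in all. The genotype is not given, and the labels do not say whether the replicates came from separate animals. The peak lists carry no column per library, so depth is unknown, no value per library can be shown and no test over libraries was possible. Intervals are exact 95% binomial intervals and cover counting error over peaks or genes only.

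N6-methyladenosine is placed on nascent mRNA by a nuclear complex built around Mettl3 and Mettl14, mostly at short sequences with an adenosine followed by a cytosine. It is commonest near stop codons and in long internal exons, and YTH-domain and Igf2bp proteins bind it and alter the decay, splicing or translation of the transcript. In antibody-based maps a peak is called from reads of the pulled-down RNA against input, so the abundance of the transcript sets how many reads a call rests on. In epidermis, m6A has been studied for its role in keeping progenitors undifferentiated.

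The labelled cell type was checked by which marker genes carried peaks. Of 18 basal-layer and hemidesmosome genes, 17 had a day 0 peak, against 0 of 16 fibroblast and feeder markers, 0 of 8 melanocyte markers and 1 of 11 immune and endothelial markers. No marker of these other cell types held a lost peak. In expression, however, such markers did move: 5 fibroblast and feeder markers were listed as higher and 2 as lower at day 4 in the authors' deposited table. Of the melanocyte markers 2 were listed as higher, and of the immune and endothelial markers 2 as higher and 1 as lower. The part of other cell types in the results below was not tested.

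Some lost peaks began at an annotated transcript start, where the deposited coordinates can be read against a sequence. In 14 lost peaks of at most 300 bp, at least 40 of the first 50 transcribed bases of a RefSeq start (GRCm38.p6, the assembly of mm10) were covered. The 7 runs below were chosen after their values were seen, to show starts from genes of different function and 3 of the 4 peaks with a GAC. Each has 30 bases on the transcript strand, 5′ to 3′, and capitals mark GAC, the commonest core of the m6A consensus.
Plod3, collagen lysyl hydroxylase, chr5:136987019-136987048, plus strand: gggcaaacctaattccggtcgcattgtggt
Eed, a Polycomb subunit, chr7:89980947-89980976, minus strand: gcgggtcggagatcgaaggattgagccaat
Sox2, a stem-cell transcription factor, chr3:34650005-34650034, plus strand: ctattaacttgttcaaaaaagtatcaggag
Hadha, a fatty acid oxidation enzyme, chr5:30154951-30154980, minus strand: actagaagagctttcgtcctcttctgctca
Banf1, a chromatin-binding protein of the nuclear envelope, chr19:5366827-5366856, minus strand: gtctcgatcccacaGACcggaagggccgct
Sema3c, a secreted semaphorin, chr5:17574836-17574865, plus strand: accggccggcaggaatcccaccctccgGAC
Cpa4, a carboxypeptidase, chr6:30568376-30568405, plus strand: GACtggcgcccttgaGACatgaagtggcta

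In the start-covering bases, GAC was found in 4 of 14 lost peaks (28.6%) and in 65 of 110 retained peaks (59.1%) chosen in the same way. It was found in 48.1% of the first 50 bases of all 32851 starts in the table. The longer GGAC was in 1 of 14 lost and 25 of 110 retained peaks, against 18.9% of all starts. Only the transcript strand was searched, and GGAC contains GAC. With 14 peaks these shares are a description of letters, not of methylated sites. The antibody also binds the methylated adenosine next to the cap (m6Am), which a start-covering peak cannot be told apart from.

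Plod3 had the highest score of these start-covering lost peaks, 238.5, and its only other day 0 peak was retained. The score is the authors' enrichment score per peak, whose scaling is not stated, and it is used only within the day 0 list. Exact starts were uncommon among all lost peaks inside protein-coding genes: 11 of 3685 began at the 5′ end of the gene's span, or 0.299%, against 149 of 13276 retained peaks, or 1.12%.

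Lost peaks were narrow and weak beside retained ones. Their median width from start to end was 50 bp, and 2503 of them (64.3%) were exactly 50 bp, the narrowest width in the list, against 16.7% of retained peaks, whose median width was 249 bp. The median score was 9.39 (quartiles 5.39 and 21.6) for lost peaks and 25.7 (quartiles 10.5 and 75.5) for retained peaks. The authors' unadjusted p was under 1e-05 for 78.3% of lost and 97.7% of retained peaks. In genes with a peak on both days, 21.8% of the day 0 peaks were lost, a share that ran from 51.7% of 50 bp peaks to 3.21% of peaks over 200 and up to 500 bp and back up to 12.9% of peaks over 2000 bp, whose ends can span introns. By quintile of the score, the share was 41.1% in the lowest and 5.01% in the highest.

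**Figure D1:**
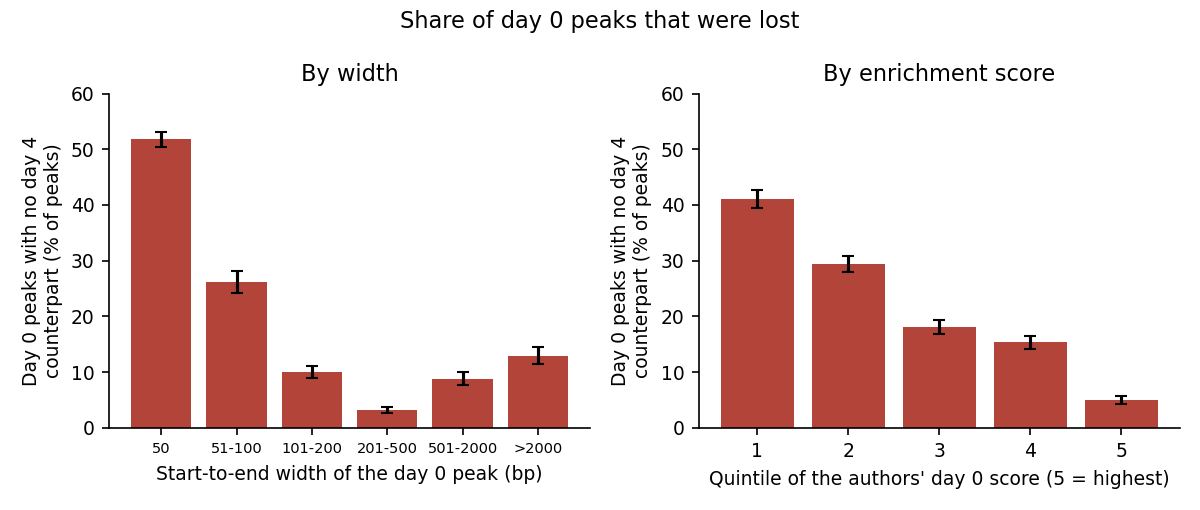
Share of day 0 peaks, in genes with a peak on both days, that had no day 4 counterpart (y axis, percent), by start-to-end width in bp (left) and by quintile of the authors' day 0 score (right). Bars are shares and whiskers exact 95% binomial intervals over peaks; 50 bp peaks (51.7%) and the lowest quintile (41.1%) stand highest.

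Within a gene it was seldom the strongest peak that was lost. Of 2373 genes with a lost peak and at least 2 day 0 peaks, the highest-scoring peak was lost in 136 (5.73%) and the lowest-scoring peak in 1998 (84.2%). On average 42.1% of the day 0 peaks of these genes were lost. The exceptions include the highest scores of the set: a 50 bp peak of Acad9, an assembly factor of respiratory complex I, scored 1411 at chromosome 3 from 36092659 to 36092708 (mm10). It stood with 2 more lost Acad9 peaks of scores 283 and 168, while the retained peak upstream scored 91.5. Cox15, a heme A synthase, lost a peak of score 690 and retained 1 of score 666. Score and the authors' unadjusted p did not always rank peaks alike. For Acad9 the p was 3.3e-17 at the top lost peak and 5.7e-13 at the retained one. For Cox15 it was 3.0e-13 at the lost peak and 4.4e-33 at the wider retained one. High-scoring lost peaks were also listed in the kinase gene Aak1 (558), the semaphorin receptor gene Nrp2 (368), the cohesin gene Stag2 (334) and the adaptor gene Crk (297). Abcb8 (288), Ibtk (286), Zfp26 (254), Alkbh8 (252), Fam35a (219 and 215) and Crebzf (217) followed.

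Many lost peaks lay beside a day 4 peak. The median distance to the nearest day 4 peak on the strand was 368 bases, with quartiles of 98 and 2417. Of the 3891, 360 (9.25%) touched a day 4 peak with 0 bases between, 1227 (31.5%) had one within 100 bases and 2510 (64.5%) within 1000. At the other end, 498 (12.8%) were more than 10000 bases away along the genome, introns included. The nearest day 4 peak belonged to the same gene for 3840 peaks (98.7%), and the lost peak lay upstream of it in 1935 of these (50.4%). That nearest peak was one with no day 0 counterpart in 538 cases (14.0%). In 312 cases a new peak was the nearest and lay within 100 bases.

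**Figure D2:**
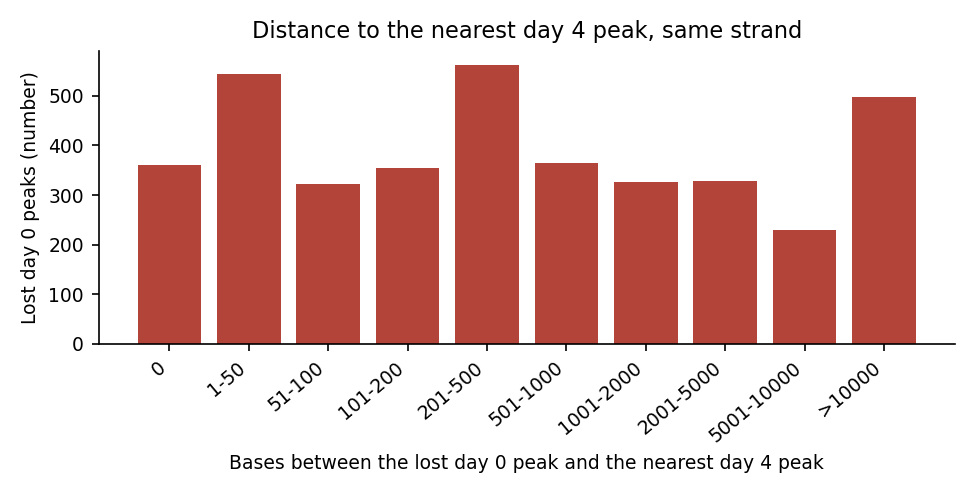
Number of lost day 0 peaks (y axis) by the bases between the peak and the nearest day 4 peak on the same strand (x axis, unequal classes). There were 360 peaks at 0 bases and 498 beyond 10000 bases.

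The edge of the rule runs through such pairs. Just inside it, peaks of Stag2 (score 334), Abcb8 (288) and Tmem110 (173) had a day 4 peak directly beside them, with 0 bases between. Just outside, peaks of Fermt1 (156), Pitpnm2 (155) and Jarid2 (129) shared exactly 1 base with a day 4 peak, as did 208 day 0 peaks in all. In Cul5, a cullin scaffold of ubiquitin ligases, all 4 day 0 peaks counted as lost while the gene's sole day 4 peak, 50 bp long, touched the most 3′ of them and lay 49 bases from the next. Cul5 is 1 of 56 genes in which every day 0 peak was lost, 37 of which had a single day 0 peak. In the zinc finger gene Zfp719 all 7 day 0 peaks were lost and the sole day 4 peak touched the most 5′ of them. Zinc finger genes have similar copies, so reads placed in them are uncertain.

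Along the gene, lost peaks were spread widely. Among those inside protein-coding genes, 24.1% were found no more than 1000 bp from the 3′ end of the RefSeq span and 6.54% within 1000 bp of the 5′ end, against 31.2% and 9.97% of retained peaks. When only the retained peaks of the same genes were taken, the shares were 22.7% and 8.06%. In genes with at least 3 day 0 peaks, 21.8% of the most 5′ peaks, 27.9% of the middle peaks and 24.1% of the most 3′ peaks were lost. By the number of day 0 peaks in the gene, the lost share was 1.97% with 1 peak, 18.0% with 2, 22.4% with 3 and 25.7% with 4, and between 26.0% and 28.9% with 5 or more. The low end of this order is set by the rule. A gene whose day 0 peaks all go falls outside the set unless it has a day 4 peak elsewhere. Among the autosomes and X the lost share ran from 18.5% (chromosome 6) to 26.2% (X).

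Lost peaks came mostly singly: 1536 genes (63.7%) had 1, 521 had 2, 212 had 3 and 141 had 4 or more. The number of peaks fell from day 0 to day 4 in 1614 of the 2410 genes (67.0%), was equal in 528 and rose in 268. Most lost peaks in a gene, 15, were in Mki67, which encodes the proliferation marker Ki-67. Its 19 day 0 peaks became 4 at day 4. The retained Mki67 peaks scored 6.28 to 8.44, and its lost peaks 1.88 to 4.78, so every lost peak of this gene scored below every retained one. Next were the zinc finger homeobox gene Zfhx3 (10 of 14 lost), the hemidesmosomal linker Dst (10 of 30), the telomere and replication-timing factor Rif1 (9 of 10) and the microtubule protein gene Map1b (9 of 13). Rif1 kept only its strongest peak, of score 725, against 44.8 to 82.2 for its lost peaks. The retained Rif1 peak ran on chromosome 2 from 52111962 to 52112906 (mm10, plus strand) and was overlapped by 2 day 4 peaks, and 7 of the 9 lost peaks lay upstream of it, the nearest ending at 52111862. Whether these stretches are exonic was not analysed here, as only gene spans were used. Raph1 (8 of 10), the centriole gene Cep295 (8 of 10), the protocadherin-like Fat2 (8 of 19), Dopey1 (7 of 10), Zfp719 (7 of 7), Bbx (7 of 10), Ankrd12 (7 of 11), the kinase Wnk1 (7 of 24), Zfp26 (6 of 7) and the histone methyltransferase Whsc1 (6 of 11) completed the leading 15, with other genes that had 6 lost peaks, such as Rock2 and Kmt2c, placed after them by summed score.

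**Figure D3:**
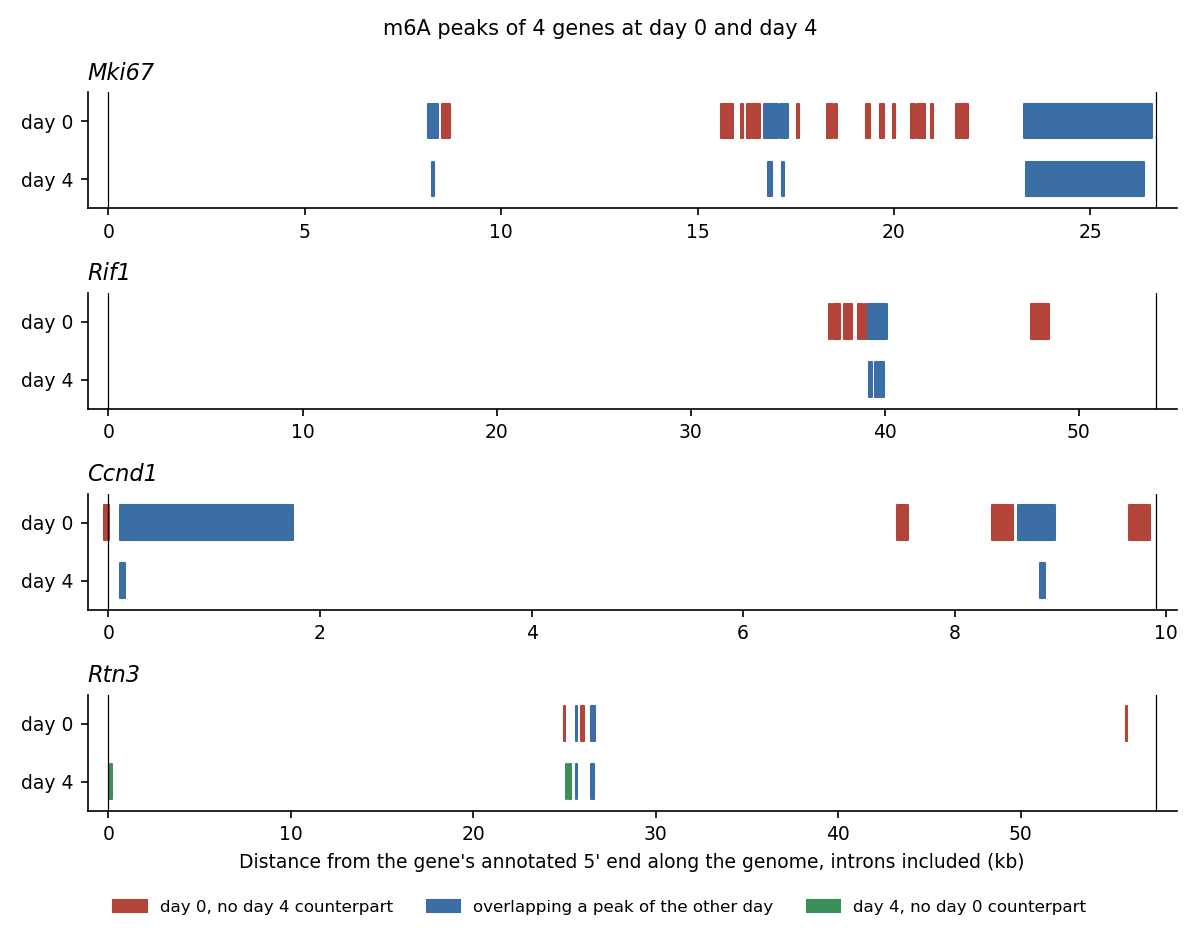
Peaks of Mki67, Rif1, Ccnd1 and Rtn3 on each day, by distance in kb from the gene's annotated 5′ end along the genome; thin vertical lines mark both ends of the gene, and peaks too narrow to see are drawn at a fixed minimum width. Red marks lost day 0 peaks, blue peaks that overlap the other day, green day 4 peaks with no day 0 counterpart; in Mki67, 15 of 19 day 0 peaks are red.

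Expression was measured in the input libraries, which the rule did not use directly, although peaks were called against input. Over all genes the authors tested, 26.4% were lower and 27.1% higher on day 4, from the authors' deposited table, which lists genes up to an adjusted p of 0.05. Of the 2410 genes with a lost peak, 1006 were lower (41.7%, interval 39.8 to 43.7) and 479 higher (19.9%). The header of that table does not name the direction, which was read from genes with peaks on a single day. Which way the genes with lost peaks lean is therefore no evidence independent of the peaks. Under this reading the cell cycle and mitosis list had 27 of 33 genes lower and 3 higher. The lists of differentiation went different ways. Spinous-layer and commitment genes had 6 of 25 lower and 14 higher, and cornified envelope and barrier genes 11 of 24 lower and 5 higher. The other 3922 genes with a peak on both days had 967 lower (24.7%) and 1499 higher (38.2%). The median log2 fold change of the listed genes was -0.46 with lost peaks and 0.38 without. The share of lower genes was 36.9% with 1 lost peak, 48.0% with 2, 54.2% with 3 and 52.5% with 4 or more.

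Genes with lost peaks also had more day 0 peaks, a median of 4 against 2, so the comparison was repeated at equal numbers. With 2 day 0 peaks, 48.1% of 588 genes with a lost peak and 23.4% of 1083 without were lower. With 3 they were 44.6% and 21.4%, with 4 they were 37.6% and 18.8%, and with 5 they were 41.0% of 305 genes and 12.8% of 117. With 1 day 0 peak, 29.7% of 37 genes with a lost peak and 28.8% of 1838 without were lower. By the rule, such a gene holds a lost peak only if it has a day 4 peak away from its only day 0 peak. These 37 genes were thus selected in another way, and this pair cannot be set beside the others. By at least 2-fold in the authors' deposited table, 9.90% of all genes tested were lower and 11.3% higher. Among genes with a lost peak 263 were lower (10.9%), near the share of all genes, and 37 higher (1.54%). Among the others these shares were 3.47% and 7.96%. Genes that had lost peaks and no new day 4 peak were lower in 51.1% of 1611 cases, whereas genes with both lost and new peaks were lower in 22.8% of 799 and higher in 36.2%.

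**Figure D4:**
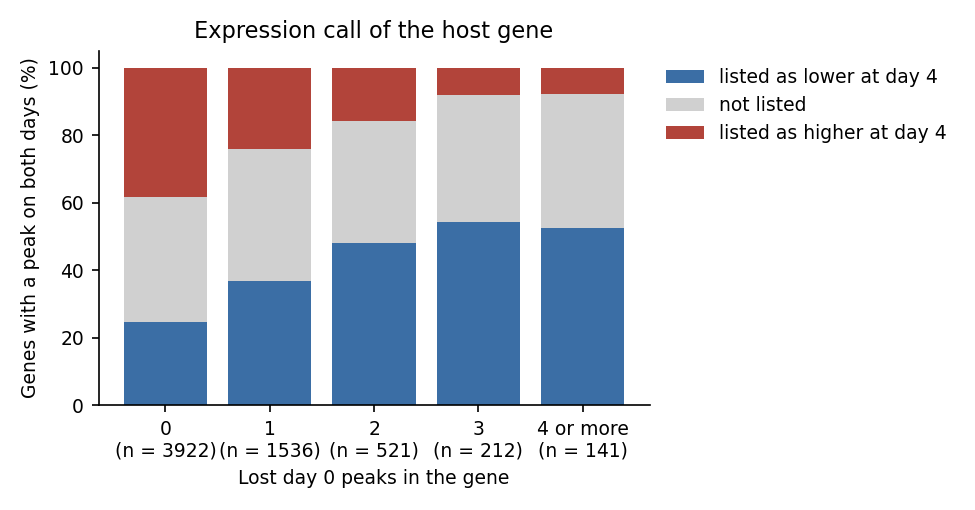
Genes with a peak on both days (y axis, percent) listed as lower, not listed, or listed as higher at day 4, by the number of lost day 0 peaks in the gene (x axis, number of genes below each bar). The lower share is 24.7% with 0 lost peaks and 54.2% with 3.

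Counted over peaks, 31.5% of the day 0 peaks in lower genes were lost, 21.1% in genes not listed and 12.2% in higher genes. In genes lower by at least 2-fold the share was 44.2%, and in genes higher by at least 2-fold it was 5.39%. The order held in each quintile of the score: in the lowest, 55.6% of peaks in lower genes and 26.0% in higher genes were lost, and in the highest 6.80% and 2.18%. It held among 50 bp peaks as well, with 69.9% lost in lower genes and 31.1% in higher genes. Transcript level moved with the share of peaks lost, under the direction read from the peaks. Its part in the losses was not tested. In bulk RNA, fewer cells of a type and less RNA per cell cannot be told apart.

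**Figure D5:**
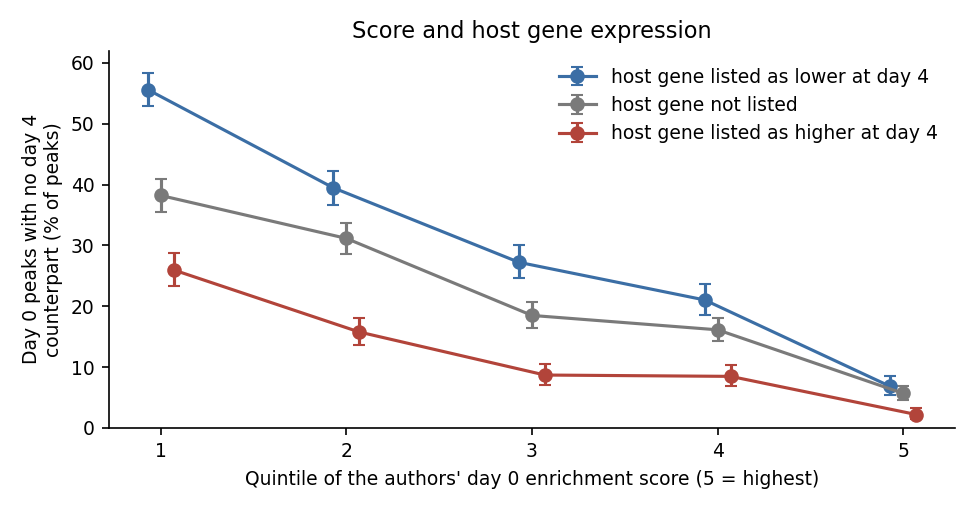
Share of day 0 peaks with no day 4 counterpart (y axis, percent, exact 95% binomial intervals over peaks) by quintile of the authors' day 0 score (x axis) and by the expression call of the host gene. Points of lower genes lie above those of higher genes in all 5 quintiles, from 55.6% against 26.0% to 6.80% against 2.18%.

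The methylation table is the same day 4 against day 0 contrast as the rule and describes the lost peaks without supporting them. It lists sites up to a false discovery rate of 0.05, with 2.17% of all sites tested lower and 4.79% higher at day 4. The direction of this table, too, was read from the peaks, so lower and higher sites are not independent of them. Of the 3891 lost peaks, 123 overlapped a site called lower (3.16%, interval 2.63 to 3.76) and 68 a site called higher (1.75%). For all day 0 peaks these shares were 4.46% and 5.84%, and for retained peaks 5.10% and 7.69%. The order at lower sites was not the same at all scores. In the lowest quintile of the score 2.59% of lost and 2.04% of retained peaks overlapped a lower site, and in the next 3.81% and 2.65%, whereas in the highest the shares were 2.23% and 9.63%. At higher sites lost peaks had the smaller share in all 5 quintiles, from 2.59% against 13.4% in the lowest to 0.559% against 3.83% in the highest. Among lost peaks over 1000 bases from any day 4 peak, 30 of 1381 (2.17%) overlapped a lower site.

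Among the lower sites that overlapped a lost peak, the smallest false discovery rates were those at Haus3, a spindle gene (log fold change -1.62, base not stated, false discovery rate 4.4e-08), the splicing regulator Mbnl2 (-1.40, 5.3e-07) and Ttc14 (-0.94, 2.8e-06) in the authors' deposited table. Sites over lost peaks of Ibtk (-0.89), the cGMP-dependent kinase gene Prkg2 (-0.58, a site spanning 3 lost peaks), Glce (-0.82), the histone methyltransferase Ash1l (-0.99) and Rbm7 (-0.77) followed in the authors' deposited table. Of the 123 lost peaks at lower sites, 74 shared the site with a day 4 peak elsewhere in it. The host gene was lower for 49 (39.8%) and higher for 24 (19.5%). Among 714 retained peaks at lower sites these shares were 31.9% and 26.6%. Of all 3891 lost peaks, 1778 lay in lower and 636 in higher genes, so a lean to lower host genes is not particular to these sites.

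The 68 lost peaks at sites called higher lay mostly in genes whose transcript fell: the host gene was lower for 46 (67.6%) and higher for 9. Among 1075 retained peaks at such sites, 26.8% had a lower host gene. Slc7a5, a large neutral amino acid transporter, is 1 such gene. All 3 of its lost peaks overlapped sites called higher, with log fold changes of 1.58, 3.50 and 3.23 in the authors' deposited table, while its transcript was 23.8-fold lower (log2 fold change -4.57, SE 0.10). The lost Slc7a5 peaks scored 5.82, 4.75 and 5.28 in that order, and the second lay 198 bases from the gene's 5′ end, 24512 bases from the nearest day 4 peak. Its strongest peak, of score 323 and 1386 bp wide, was retained, and it overlapped day 4 peaks of 347 and 198 bp. The most 5′ lost peak of Ccnd1 lay in a higher site of 1.58, and lost peaks of Asns, asparagine synthetase, lay in higher sites of 2.03 and 1.37 in the authors' deposited table. Some lost peaks of genes taken up below also lay in higher sites in the authors' deposited table. These were in Plec (1.34), Klf4 (1.46), Sprr1b (1.38), Ezr (1.49) and Hnrnpu (3.10), whereas a lost Fat1 peak lay in a lower site (-1.44). Ccnd1, Asns and these genes are named here after their values were seen. Among the higher sites that overlapped a lost peak, the smallest false discovery rates were those at Junb (2.14, 2.3e-25), Ube2o (1.32, 2.9e-17) and Plch2 (1.23, 2.3e-16) in the authors' deposited table. Junb encodes an AP-1 factor, and its lost peak touched a 348 bp day 4 peak inside the same site.

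Proliferation genes stood high in the share of peaks lost, through a few genes. The lists of genes used here were chosen with earlier results of these data known, and the share of lost peaks for each is set beside the 21.8% over all genes with a peak on both days. The peaks of each list were counted only in its genes with peaks on both days. Of 33 cell cycle and mitosis genes, 23 had a day 0 peak, 12 had peaks on both days and 4 held lost peaks. The lost peaks made up 27 of the 49 day 0 peaks of the 12 genes (55.1%). All 4 fell in the authors' deposited table, as did most of the list, and Mki67 alone gave 15 of the 27. The other 8 genes with peaks on both days held no lost peak. Genes of the list with a day 0 peak and no day 4 peak fall outside the set. Cyclin D1, Ccnd1, lost 4 of 6 peaks and was 10.3-fold lower in the authors' deposited table. Topoisomerase Top2a lost 4 of 5 peaks, of scores 5.21 to 43.6, kept its strongest (129), which lay 50 bases from the 3′ end, and was 7.38-fold lower in the authors' deposited table. The transcription factor gene E2f3 lost 4 of 5 peaks with a smaller fall of 0.60 on the log2 scale (SE 0.13) in the authors' deposited table.

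Of 21 DNA damage and repair genes, 19 had a day 0 peak and 11 had peaks on both days. These 11 lost 19 of 49 peaks (38.8%) in 7 genes, of which 6 were lower, 0 higher and 1 not listed. The list fell with or without lost peaks: 19 of its 21 genes were lower, as were 3 of the 4 genes with peaks on both days and none lost. Rif1 was 2.28-fold lower, and the checkpoint adaptor Mdc1 (2 lost of 6 peaks) and the break-repair factor Rad50 (2 of 5) were 2.55-fold and 2.14-fold lower in the authors' deposited table. The mismatch repair gene Msh6 lost 3 of 7 peaks and was not listed in the expression table.

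Among Myc-related and immediate early genes, 13 of 54 peaks were lost (24.1%) in 9 genes, 4 lower, 2 higher and 3 not listed. The whole list of 22 genes had 10 lower and 7 higher. Its genes with peaks on both days and none lost had 3 lower, 2 higher and 1 not listed. The nucleolar protein gene Ncl lost 3 of 4 peaks, of scores 18.1 to 28.5, kept 1 of 299 and was 4.11-fold lower in the authors' deposited table. Odc1, the rate-limiting enzyme of polyamine synthesis, lost 1 of 2 peaks and was 4.52-fold lower in the authors' deposited table. Mga lost 2 of 12 and Fosl2 2 of 6. Myc itself lost none of its 3 peaks, and Pvt1 had no day 4 peak and so falls outside the set.

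The 8 genes with lost peaks that fell most included several of amino acid transport or metabolism, namely Slc7a5, Aldh18a1, Shmt2, Asns and Slc6a9. In order, log2 fold changes in the authors' deposited table were -4.71 for the stress pseudokinase Trib3, -4.57 for Slc7a5, -3.49 for the growth factor Nrg1, -3.37 for Ccnd1, -3.35 for the proline synthesis enzyme Aldh18a1, -3.24 for mitochondrial serine hydroxymethyltransferase Shmt2, -3.00 for Asns and -3.00 for the glycine transporter Slc6a9. Shmt2 lost 4 of 5 peaks, of scores 2.66 to 12.0, and kept its strongest at 31.1. Asns lost 3 of 4 and Slc6a9 3 of 4.

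Basal-layer and hemidesmosome genes, some of which anchor progenitors to the basement membrane, lost 32 of 110 peaks (29.1%) in 12 of 17 genes with peaks on both days. Of these 12, 8 were lower, 2 higher and 2 not listed. Among those with peaks on both days and none lost, 1 was lower, 3 higher and 1 not listed. Over the whole list of 18 genes, 10 were lower and 5 higher. Plectin, Plec, lost 4 of 18 peaks and was 2.41-fold lower, Itgb4 lost 3 of 6 and was 1.59-fold lower, and Dst was 1.47-fold lower in the authors' deposited table. All 3 day 0 peaks of the laminin gene Lama3 were lost and a new day 4 peak touched the most 5′ of them. The basal keratin gene Krt14, named after its value was seen, held the lowest score of all lost peaks, 1.08, with an unadjusted p of 0.0613 in the authors' list, and was 2.09-fold higher in the authors' deposited table.

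Genes of differentiation gave lower shares in the spinous list and a share near the whole in the envelope list. Spinous-layer and commitment genes lost 7 of 66 peaks (10.6%), with 2 in Klf4 and 1 each in 5 genes, among them the commitment factors Grhl3, Grhl1 and Notch1. Of the spinous genes with lost peaks, 2 were lower, 3 higher and 1 not listed. Those with peaks on both days and none lost had 3 lower, 8 higher and 2 not listed. Cornified envelope and barrier genes lost 12 of 53 (22.6%) in 6 genes, 5 lower and 1 higher. Envelope genes with peaks on both days and none lost had 2 lower, 3 higher and 2 not listed. Transglutaminase Tgm1, which cross-links the envelope, lost 4 of 6 peaks of scores 3.38 to 5.02 and kept its strongest (149), and fell by 0.53 on the log2 scale (SE 0.10) in the authors' deposited table. The lipid transporter Abca12 lost 3 of 5 and was 3.41-fold lower in the authors' deposited table. Envoplakin, Evpl, lost 1 of 9. In Sprr1b 2 of 3 peaks, of scores 1.59 and 1.82, were lost although the gene was 2.33-fold higher in the authors' deposited table, and its main peak had the same ends on both days. Sprr genes have similar copies, which makes single members uncertain. Desmosome and tight junction genes lost 14 of 90 peaks (15.6%), 2 each in Pkp4, Cldn1, Dsc3 and Tjp1. Junction genes with lost peaks had 3 lower, 4 higher and 2 not listed. Those with peaks on both days and none lost had 0 lower, 7 higher and 3 not listed.

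The m6A machinery lost 13 of 48 peaks (27.1%) in 6 of 15 genes, 3 lower and 3 not listed. Of the whole list of 21 genes, 10 were lower and 0 higher. Among those with peaks on both days and none lost, 2 were lower and 7 not listed. The reader gene Igf2bp2 lost 4 of 7 peaks and was 1.47-fold lower in the authors' deposited table. The methyltransferase gene Mettl16 lost 3 of 4 and was 1.80-fold lower, and the writer subunit Zc3h13 lost 3 of 7 and was 1.43-fold lower in the authors' deposited table. The lost Mettl16 peaks, of scores 5.86 to 9.09, lay 98 to 395 bases from its retained peak's day 4 counterpart. Cbll1 lost 1 of 4.

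In the chromatin, actin and ubiquitin lists most genes with lost peaks were not listed as changed in expression, and genes with peaks on both days and none lost had similar shares, 8 of 15, 4 of 8 and 4 of 7 not listed. Chromatin modifiers lost 46 of 231 peaks (19.9%) in 24 genes, of which 14 were not listed, 4 lower and 6 higher. The H3K4 methyltransferase genes Kmt2c (6 of 16) and Kmt2a (4 of 18), the dioxygenase Tet3 (5 of 9) and Chd9 (3 of 10) led them. Actin and focal adhesion genes lost 34 of 163 (20.9%) in 16 genes, 10 of them not listed, with the kinase Rock2 (6 of 9), myosin Myh9 (4 of 12) and ezrin, Ezr (3 of 8) among them. The ubiquitin list lost 24 of 78 (30.8%) in 12 genes, 7 not listed and 5 lower, led by Cul5, Huwe1 (4 of 12), Trip12 (3 of 6) and Nedd4 (3 of 6). Splicing and RNA processing genes lost 30 of 122 (24.6%) in 16 genes, 9 lower, 2 higher and 5 not listed. Foremost were Smg1 (4 of 6), Cnot1 (3 of 5), Dicer1 (3 of 8) and Hnrnpu (3 of 5). The whole splicing list of 25 genes had 12 lower and 3 higher. Its genes with peaks on both days and none lost had 2 lower, 1 higher and 4 not listed. Signalling genes gave smaller shares: 8 of 55 (14.5%) for EGF receptor, MAPK and PI3K genes, with 3 of 6 in the phosphatase Dusp6 and 1 each in Spred1 and Nf1. The TGF-beta, BMP, Wnt and Hippo list lost 15 of 120 (12.5%), with 3 of 20 in Fat1, 2 each in Skil and Tead1 and 1 in Smad2. In the EGF receptor list, genes with lost peaks had 2 lower, 2 higher and 2 not listed, and those without had 3, 8 and 8. In the TGF-beta list these were 1, 4 and 6 with lost peaks and 1, 8 and 5 without, counting genes with peaks on both days. No test over these lists was made.

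Some genes with lost peaks rose, and in 7 of the 8 with the largest rises new day 4 peaks accompanied the lost ones. Log2 fold changes in the authors' deposited table were 2.36 for the matrix protein Thbs1, 1.91 for the protease inhibitor Timp2, 1.76 for the small GTPase Rhou and 1.69 for D8Ertd82e. They were 1.64 for Slc37a1, 1.61 for Bpgm, 1.57 for Vsig10 and 1.53 for Magi3 in the authors' deposited table. Timp2 lost 1 of 4 peaks and had 5 new ones, and Thbs1 lost 1 of 5 with 3 new. The exception was Bpgm, with 2 lost and 0 new. Lost and new peaks together were common in higher genes: 289 of the 479 with a lost peak also had new ones. Of the 37 higher by at least 2-fold, 25 had new peaks. Lost and new peaks were most numerous together in Wnk1 (7 lost, 5 new), Prr14l (5 and 3) and the reticulon Rtn3 (4 and 3, a tie with Huwe1). In Rtn3 a lost peak of score 178 had a new day 4 peak 50 bases away.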

How the data were processed

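Polyadenylated RNA was sonicated, enriched with an anti-m6A antibody and sequenced from a stranded kit, per the labels' protocols. The submitters' processing notes name HISAT2 2.1.0, DESeq2 1.18.1 and mm10; for the peak caller and the methylation test, no name is given in the sources used here. The deposited peak lists hold the authors' enrichment score and an unadjusted p-value per peak. The authors' deposited expression table holds a mean normalized count (a signal averaged over libraries), a log2 fold change with its SE and adjusted p-values, and the deposited methylation table a log fold change of unstated base, treated as a score, with false discovery rates. Both list only calls up to 0.05. The numbers tested, 14924 genes and 36796 sites, were derived from the Benjamini-Hochberg adjustment. None has a column per library, so depth and its precision are unknown.

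Tables were read as day 4 over day 0: of listed genes with peaks on day 4 only, 466 of 497 had positive changes, against 32 of 797 for day 0 only. Of methylation sites that overlapped only a day 4 peak, 414 were positive and 5 negative. Those that overlapped only a day 0 peak were 29 positive and 90 negative. Peak ends were taken as 1-based and inclusive, since peaks at gene ends start on the RefSeq start. Lost peaks needed 0 shared bases on the same strand. Gene ends came from RefSeq GRCm38.p6, and sequences from its table of starts, with GAC in capitals in place of the planned GGAC and members outside the rule for names. The overlap code was tested on simulated data. Named genes were those with the most lost peaks (15), the highest scores (15), the smallest false discovery rates (10 lower, 5 higher), the largest expression changes at a mean of at least 100 (8 each way), up to 4 per gene list, Myc, Pvt1, the peaks at the edge of the rule and 3 genes with most lost and new peaks. Predicted genes were left out of these names. The members, lists and rules were chosen with earlier results of these data known. Software was Python 3.11.15, numpy 2.4.6, pandas 2.3.3, scipy 1.17.1 and matplotlib 3.10.9. Alternatives were other overlaps, stricter peaks, sites and genes, and subsets of peaks.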

Additional observations from a re-analysis of the deposited data

How the results depend on the processing

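Of 56 alternative values over 10 results, 23 stayed within the interval of the value given (for the count, within 1.5 times). The number of lost peaks was 5938 when a day 4 peak had to cover 50% of the day 0 peak, and 1381 when a day 4 peak within 1000 bp counted as overlapping. As a share of day 0 peaks, 19.5% became 29.8% and 6.93% under these rules and 13.4% with 100 bp. It was 16.4% with day 0 peaks under an unadjusted p of 1e-05, 20.7% with day 4 peaks so limited and 17.6% with both. Rules added after the data were seen gave 17.7% (touching peaks count as overlapping) and 20.6% (at least 2 shared bases). Lost peaks at lower sites were 1.34% at a false discovery rate under 0.01, 2.08% with sites of at most 2000 bp and 2.17% with no day 4 peak within 1000 bp; at higher sites they were 1.29%, 1.05% and 1.01%. Host genes listed as lower were 36.6% at an adjusted p under 0.01, 10.9% with at least 2-fold, 44.4% for peaks with p under 1e-05, 51.0% with no day 4 peak within 1000 bp and 47.6% with none within 100 bp, the last added after the data were seen. Host genes listed as higher were 16.2%, 1.54%, 17.7%, 12.7% and 14.9% in that order. For genes with no such peak, the lower share was 20.9% at an adjusted p under 0.01, 3.47% with 2-fold and 27.5% with the 1000 bp rule. The median score was 11.5 for peaks with p under 1e-05, 9.96 with no day 4 peak within 1000 bp and 13.0 in genes with 2 day 0 peaks. In the last 2 sets 15.9% and 37.0% lay within 1000 bp of the 3′ end, and 10.5% and 13.1% of the 5′ end.

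Overlap of exon blocks was not run, because the peak lists used here hold no blocks. Leaving out a library was not possible. No paired analysis was possible because the tables hold 1 value per peak, gene or site. Depth is unknown, so a lost peak cannot be told apart from a peak with too few day 4 reads to be called.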

Other observations

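Day 4 peaks with no day 0 counterpart, in genes with a peak on both days, numbered 2841 in 1984 genes. They made up 26.3% of 5855 day 4 peaks in genes listed as higher, 13.8% of 6706 in genes not listed and 7.86% of 4808 in genes listed as lower, the opposite order to that of lost day 0 peaks. Lost and new peaks met in 799 genes, which are 33.2% of genes with lost peaks and 40.3% of genes with new peaks. Retained peaks of genes with a lost peak were covered by a single day 4 peak over a median of 93.7% of their length, and 18.7% of them were covered under 50%. In the other genes the median was 100% and 11.5% were covered under 50%.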
